A study of Homo sapiens with 4 samples.

Results

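Interferon-stimulated and RNA-sensing genes were followed in melanoma cells in which the long noncoding RNA LINC00622 was knocked down. The genes were chosen by name, as sensors of double-stranded RNA, the factors that act on interferon signals and well-known genes that interferon induces. The rule for choosing them used no measured value, although earlier results of these data were known when it was written. Of 46 genes with these roles, 41 are among the 17755 genes of the deposited table. The other 5, RIGI (also called DDX58), OASL, RSAD2, IFI44L and XAF1, were not analysed here. SK-MEL-28 and A375 are established human melanoma lines. Each was transfected with siLINC00622, an siRNA against LINC00622, or with siNC, a control siRNA, which gives 4 libraries with 1 library per condition. After 6 h in medium without serum, the cells spent 24 h in medium with 10% serum. Thus all 4 libraries come from cells that received transfection reagent and a double-stranded RNA, and none of them is from untransfected cells. A single library per condition leaves no spread between cultures, so within a line the ratios below carry no test.

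Cells detect double-stranded RNA through receptors in the cytosol, such as RIG-I, MDA5 (IFIH1) and LGP2 (DHX58), and through TLR3 in endosomes. RIG-I and MDA5 signal through the adaptor MAVS to the factors IRF3 and IRF7, which switch on interferon genes. Secreted interferon binds its receptor, of which IFNAR1 is a chain, and a complex that holds STAT2 and IRF9 then binds the interferon-stimulated response element (ISRE) in target promoters. Many of the induced proteins block viral RNA, translation or entry.

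Total counts were between 31269923 and 36384819 per library, and the 41 genes held between 0.16% and 0.184% of them. The targeted LINC00622 went from 309 counts (siNC) to 135 (siLINC00622) in SK-MEL-28 and from 135 to 86 in A375. Fitted over all 4 libraries with the cell line as a block, its log2 difference was -1.03 ± 0.20 (SE), with an adjusted p of 0.0996 in edgeR's quasi-likelihood test, so the targeted gene itself did not pass the threshold of 0.05. All 10 pigment cell markers are listed, and their summed FPKM (reads scaled for gene length and library depth) was 2160 and 2340 in SK-MEL-28 against 135 and 168 in A375. SOX10 alone gave 118 and 149 of the sums in A375. Of 10 markers of immune cells, LYZ and HLA-DRA are listed and the other 8 are not, and of 5 keratinocyte markers 3 are listed. The immune sum was 1.44 and 1.54 in SK-MEL-28 against 168 and 198 in A375, where HLA-DRA alone gave 165 and 196. Keratinocyte sums were 19.8 and 20.1 in SK-MEL-28 against 32.8 and 33.1 in A375, most of it KRT10 in both lines.

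Promoters of these genes were searched for the ISRE in sequences of RefSeq (GRCh38.p14), each of 300 bases around a transcript start. The core of the ISRE was searched as GAAANNGAAA on either strand, so that a match on the other strand reads TTTCNNTTTC, and matches may overlap. Of the 41 genes, 32 have a promoter in the table, and 22 of these (68.8%) hold the motif, against 4.38% of all 27305 genes there. The other 10 hold no match. Counted by promoter, it was 61.9% of 42 against 3.57% of 35116. IFIT2, IRF3, IRF7, DHX58, OAS2, MX2, IFITM2, GBP2 and USP18 have no entry. The stretches below show the matches in capitals for the genes with the largest differences between the lines that have an entry with a match, and for ISG15 and IFIT1, genes with small differences. In each, the letters run 5′ to 3′ along the strand of the gene.
BST2, chr19:17405730-17405775, minus strand: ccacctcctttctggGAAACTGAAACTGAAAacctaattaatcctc
IFI6, chr1:27672261-27672363, minus strand: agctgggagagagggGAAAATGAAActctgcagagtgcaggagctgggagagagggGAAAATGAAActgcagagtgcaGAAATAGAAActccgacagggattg
HERC5, chr4:88456979-88457069, plus strand: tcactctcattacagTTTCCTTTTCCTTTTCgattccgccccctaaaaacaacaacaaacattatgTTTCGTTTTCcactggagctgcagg
PARP9, chr3:122564317-122564356, minus strand: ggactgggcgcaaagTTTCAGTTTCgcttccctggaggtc
IFITM3, chr11:320871-320927, minus strand: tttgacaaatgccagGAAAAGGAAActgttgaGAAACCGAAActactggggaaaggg
IFI44, chr1:78649756-78649795, plus strand: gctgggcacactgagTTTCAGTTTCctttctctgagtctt
ISG20, chr15:88638932-88638971, plus strand: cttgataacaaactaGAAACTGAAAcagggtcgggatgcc
MX1, chr21:41420554-41420593, plus strand: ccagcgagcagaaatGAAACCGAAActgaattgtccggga
ISG15, chr1:1013369-1013414, plus strand: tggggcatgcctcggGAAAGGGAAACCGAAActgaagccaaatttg
IFIT1, chr10:89392492-89392544, plus strand: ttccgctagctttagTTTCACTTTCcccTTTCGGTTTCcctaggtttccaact

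Matches overlap in BST2, HERC5 and ISG15, and IFI6 holds 3 separate ones. The first match began 130 bases before the start in BST2, 156 in IFI6, 113 in ISG15 and 116 in IFIT1, whereas that of MX1 lies 11 bases past the start. By the line in which a gene was higher (tested below), the motif was found in 7 of 10 genes that were higher in A375, in 8 of 13 that were higher in SK-MEL-28 and in 7 of 9 that were called in neither direction. OAS1, STAT2, IFI35, MAVS and IFNAR1 were higher in SK-MEL-28 without a match in this window, and ADAR, HERC6 and IRF1 were higher in A375 without one. A match is a description of letters, and binding was not measured.

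Levels of the 41 genes spanned a wide range (the plot of levels by library). By the mean of the 4 deposited FPKM values, IFI6 was highest with 37.9, followed by BST2 with 34.3, ADAR with 32.8, IFITM3 with 25.2 and MAVS with 21.1. IFI6 encodes a small interferon-induced membrane protein and BST2 (tetherin) holds budding virus particles at the cell surface. The lowest was IRF9 at 0.314. No member was at 0 counts in any library, and the smallest count was 10, for IFITM2 in SK-MEL-28 siNC. The deposited table lists no gene with a mean FPKM under 0.25, so genes at lower levels are not seen here. Whether RIGI, OASL, RSAD2, IFI44L and XAF1 are missing for this reason was not tested. Between 7 and 10 members lay under an FPKM of 1 in each library. The orders of the first 3 genes rest on different lines, since IFI6 and BST2 were high in SK-MEL-28 whereas ADAR was between 26.9 and 38.3 in all 4 libraries.

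**Figure D1:**
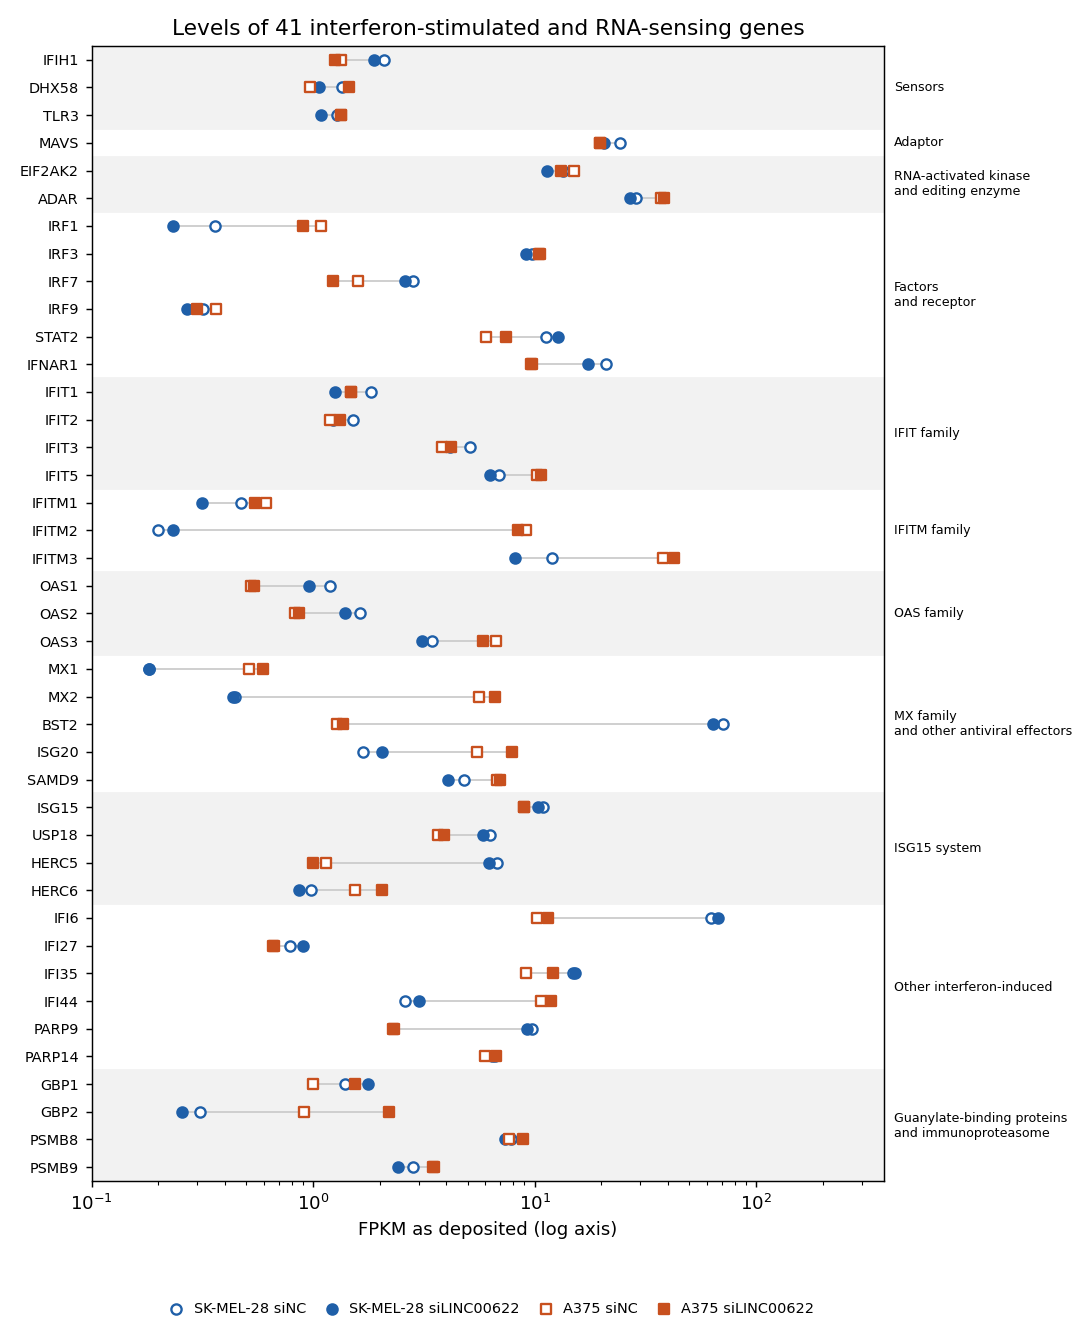
Deposited FPKM (log axis) of the 41 genes, with 1 point per library, circles for SK-MEL-28 and squares for A375, open for siNC and filled for siLINC00622. For most genes the open and filled points of a line lie together, while BST2, IFITM2, MX2, IFI6 and HERC5 have their lines far apart.

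Knockdown of LINC00622 was compared with siNC first. No gene of the list passed the test across both lines, and no gene was over 1.5-fold apart in the same direction in both. GBP2, which encodes a guanylate-binding protein induced by interferon gamma, had the largest ratio, with 205 counts under siNC and 582 under siLINC00622 in A375. Its log2 ratio there was 1.29 (95% Clopper-Pearson interval 1.06 to 1.53, counting error only, as for the intervals below). In SK-MEL-28, GBP2 had 74 and 63 counts, a log2 ratio of -0.26 (-0.77 to 0.24). GBP1, another guanylate-binding protein, was higher with siLINC00622 in each line, with 280 and 370 counts in SK-MEL-28 (log2 ratio 0.37) and 190 and 341 in A375 (0.63). The sensor gene DHX58 had 116 and 203 counts in A375, a log2 ratio of 0.59 (0.26 to 0.94), against 171 and 139 counts and -0.33 (-0.66 to 0.00) in SK-MEL-28. IRF1, a factor induced by interferon gamma, had 147 and 98 counts in SK-MEL-28, a log2 ratio of -0.61 (-1.0 to -0.24), and 419 and 401 counts and -0.27 (-0.47 to -0.07) in A375.

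With a limit of 1.5-fold, 0 of 41 genes were higher and 1 (IRF1) was lower with siLINC00622 in SK-MEL-28. Among all 15442 genes that reached 10 counts in either library of that line, 4.56% were higher and 6.49% were lower. In A375, 3 of 41 genes (7.32%) were higher, DHX58, GBP1 and GBP2, and 0 were lower, beside 4.52% and 4.34% of 16021 genes. The largest of these shares in the list rests on 3 genes. When the ratio was instead taken from FPKM after adding 1, which shrinks ratios of low genes, IRF1, DHX58 and GBP1 were under the limit and GBP2 was over it.

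The signs of the mostly small ratios were counted next. The median log2 ratio was -0.13 in SK-MEL-28, where 31 genes were lower and 10 higher, and 0.06 in A375, where 12 were lower and 29 higher. For all genes tested, the median was 0 in each line, with 49.5% higher in SK-MEL-28 compared with 50.7% in A375. For the wider pathway list described at the end, SK-MEL-28 gave a median of 0 (38 genes higher and 38 lower) whereas A375 gave 0.09 (49 higher and 28 lower). Lower in SK-MEL-28 and higher in A375 described 21 of the genes, while 10 were lower in both lines and 8 higher in both. In SK-MEL-28 the counting interval lay below 0 for 13 genes and above 0 for 4, and in A375 below 0 for 4 and above 0 for 13. All genes had 24% below and 22.9% above 0 in SK-MEL-28, and 22% below and 23.8% above in A375. The difference between the lines in response to knockdown has no residual degrees of freedom in 4 libraries and was not tested.

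**Figure D2:**
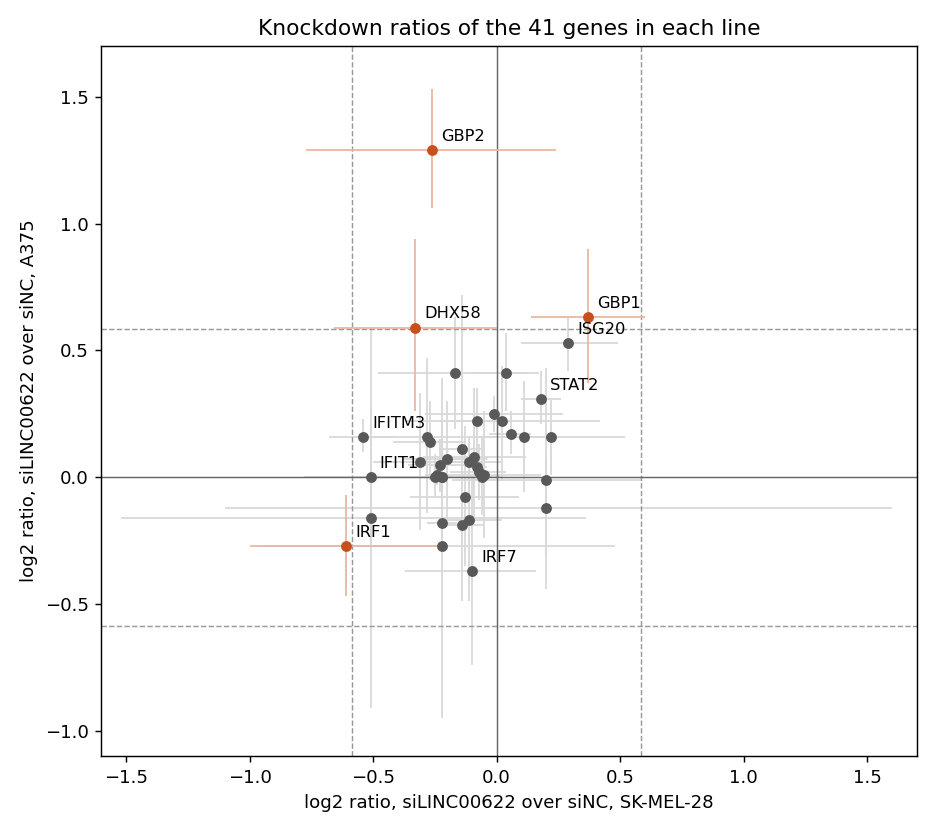
Log2 ratio of siLINC00622 over siNC in SK-MEL-28 (x axis) and A375 (y axis), 1 point per gene, with 95% Clopper-Pearson intervals as bars and dashed lines at 1.5-fold. IRF1, DHX58, GBP1 and GBP2, in orange, pass a dashed line in 1 line only, and most points lie left of 0 on the x axis.

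Across both lines, the additive fit of edgeR called 75 of 16742 genes between siLINC00622 and siNC, 0.448% in all, and 0 of the 41. DESeq2 and limma also called 0 of these genes, although DESeq2 gave an adjusted p for 20 of them only. Over all genes DESeq2 called 143 higher and 162 lower, and limma 1 and 0, so the 0 in limma says little about these genes. At an unadjusted p under 0.05 stood 3 of 41 genes in edgeR, 1 of 20 in DESeq2 and 2 of 41 in limma, beside 14.5% of all genes in edgeR. The 3 were ISG20, an RNA exonuclease, with a log2 difference of 0.43 ± 0.11 (SE), GBP1 with 0.50 ± 0.16 and STAT2 with 0.25 ± 0.10. Their edgeR adjusted p-values were 0.160, 0.227 and 0.298, and each was higher with siLINC00622 in both lines. ISG20 had 400 and 501 counts in SK-MEL-28 against 1240 and 2066 in A375. For GBP2, the log2 difference of 0.69 was the largest among the 41 in size, with an SE of 0.37, and its ratios had opposite signs in the lines. The median width of the 95% interval of this difference was 0.68 over the 41 genes, and the smallest log2 difference in size that was called in any gene was 0.55. The median of the 41 log2 differences in size was 0.13, under the sizes that these libraries allowed to be called. The p-values measure the spread between these libraries and not between cultures. That spread holds any difference between the responses of the lines. A change in 1 line only thus raises the error of its own gene, and 0 calls do not show that no line responded.

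The 3 sensors were at low levels in both lines, whereas MAVS, the adaptor of MDA5, was among the 5 highest genes of the list. IFIH1 encodes MDA5, the sensor of long double-stranded RNA. From siNC to siLINC00622, in the order kept below, its FPKM was 2.08 and 1.88 in SK-MEL-28 against 1.33 and 1.25 in A375. The SK-MEL-28 libraries lay above both A375 libraries, and the line difference on the log2 scale (A375 minus SK-MEL-28, in the same fit) was -0.78 ± 0.16 (SE, adjusted p = 0.00354, edgeR). DHX58, a modulator of RIG-I and MDA5 signalling, had an FPKM of 1.35 and 1.06 in SK-MEL-28 against 0.97 and 1.46 in A375, so its lines overlapped, and it is the sensor past 1.5-fold with knockdown in A375. TLR3, the endosomal receptor, had an FPKM of 1.28 and 1.09 in SK-MEL-28 against 1.34 and 1.33 in A375, and its line difference of 0.01 ± 0.16 was not called (adjusted p = 0.979). MAVS, the adaptor on mitochondria, was much higher than the sensors, at 24.4 and 20.5 in SK-MEL-28 and 19.8 in both A375 libraries. The log2 ratio of MAVS with knockdown was -0.24 (-0.28 to -0.20) in SK-MEL-28 and 0.01 (-0.03 to 0.06) in A375. The line difference of MAVS, -0.34 ± 0.09, had an edgeR adjusted p of 0.0146, but this call was lost with scaling to library totals (0.139) and in limma on FPKM (0.162).

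EIF2AK2 and ADAR, whose proteins act on double-stranded RNA directly, were also well expressed. EIF2AK2 encodes PKR, the kinase that halts translation when it binds double-stranded RNA. Its FPKM was 13.4 and 11.4 in SK-MEL-28 against 15 and 13.1 in A375, with siNC first. With knockdown, EIF2AK2 was lower in both lines, by log2 ratios of -0.22 (-0.28 to -0.16) and -0.18 (-0.24 to -0.13), and across the lines by -0.19 ± 0.08 (adjusted p = 0.352 in edgeR). ADAR edits adenosine to inosine in double-stranded RNA and so keeps the cell's own RNA from setting off the sensors. Its FPKM was 28.7 and 26.9 in SK-MEL-28 against 37.4 and 38.3 in A375. Both A375 libraries were higher than both SK-MEL-28 libraries, by 0.28 ± 0.08 (adjusted p = 0.0191, edgeR), a 1.21-fold difference. The knockdown ratios of ADAR were -0.08 (-0.12 to -0.04) and 0.04 (0.01 to 0.08).

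Of the 6 factors and receptor genes, 3 were higher in SK-MEL-28, 1 was higher in A375 and 2 were not called. For all genes tested, 33.4% were higher in SK-MEL-28 and 34.4% in A375. IFNAR1, a chain of the type I interferon receptor, had an FPKM of 21.0 and 17.5 in SK-MEL-28 against 9.71 and 9.68 in A375, a 2.22-fold difference (adjusted p = 6.74e-05, edgeR). STAT2, part of the complex that binds the ISRE, had 11.3 and 12.7 in SK-MEL-28 against 6.03 and 7.45 in A375 (2-fold, adjusted p = 0.000109). IRF7, a factor that amplifies interferon expression, had 2.83 and 2.61 in SK-MEL-28 against 1.60 and 1.23 in A375 (2.16-fold, adjusted p = 0.0016). All 4 values of each of these genes separated by line. IRF1 went the other way, with an FPKM of 0.362 and 0.234 in SK-MEL-28 against 1.09 and 0.899 in A375 (2.98-fold, adjusted p = 0.000223). IRF3, the factor that MAVS signalling activates, was level, at 9.75 and 9.17 in SK-MEL-28 against 10.5 and 10.6 in A375. IRF9, another part of the ISRE-binding complex, was at 0.320 and 0.270 in SK-MEL-28 against 0.366 and 0.299 in A375, with between 33 and 41 counts, and its line difference of 0.00 ± 0.25 was not called (adjusted p = 0.995).

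The IFIT genes encode proteins that bind viral RNA ends and block its translation. IFIT1 had an FPKM of 1.82 and 1.26 in SK-MEL-28 and 1.48 in both A375 libraries, IFIT2 was between 1.19 and 1.51 in the 4 libraries and IFIT3 between 3.81 and 5.09. In SK-MEL-28, the 4 IFIT genes had log2 ratios between -0.51 (IFIT1, 278 and 199 counts, interval -0.78 to -0.25) and -0.11 (IFIT5). In A375 they had ratios between 0 and 0.16. Between the lines, IFIT5 was higher in A375 (0.50 ± 0.10, adjusted p = 0.00423) and IFIT3 was higher in SK-MEL-28 (-0.38 ± 0.14, adjusted p = 0.0434). The call of IFIT3 was lost in 5 alternatives. With the counts of the 4 genes summed, the line difference was 0.10 (adjusted p = 0.46).

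IFITM proteins sit in membranes and hinder the entry of viruses. IFITM3 had an FPKM of 12.0 and 8.17 in SK-MEL-28 against 38.2 and 42.6 in A375, a 3.60-fold difference between the lines (adjusted p = 0.00025, edgeR). Its knockdown log2 ratio was -0.54 (-0.68 to -0.41) in SK-MEL-28, with 1133 and 794 counts, and 0.16 (0.10 to 0.23) in A375, with 3400 and 4404. IFITM2 had 10 and 12 counts in SK-MEL-28 against 433 and 460 in A375, a log2 line difference of 4.95 ± 0.29 (30.9-fold, adjusted p = 3.77e-06). IFITM1 was low in all 4 libraries, with 26 and 18 counts in SK-MEL-28 against 32 and 33 in A375. These genes are close copies of each other, and GENCODE 29 has the span of IFITM2 overlap that of IFITM1, so the authors' counting could have split reads among them. Their summed counts were 1169 and 824 in SK-MEL-28 against 3865 and 4897 in A375, a log2 line difference of 1.97 (adjusted p = 0.000129).

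The OAS enzymes make a small messenger molecule upon binding double-stranded RNA. OAS3 was the highest of them, with an FPKM of 3.46 and 3.10 in SK-MEL-28 against 6.73 and 5.86 in A375, and was higher in A375 by 0.77 ± 0.09 (adjusted p = 0.000237, edgeR). OAS1 had 1.19 and 0.955 in SK-MEL-28 against 0.523 and 0.542 in A375, and OAS2 had 1.63 and 1.40 against 0.826 and 0.861. Both were higher in SK-MEL-28, by log2 differences of -1.17 ± 0.16 and -1.01 ± 0.14 (adjusted p = 0.000634 and 0.000669). The knockdown log2 ratios of the 3 genes lay between -0.31 and -0.14 in SK-MEL-28 and between -0.19 and 0.07 in A375.

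Of the 5 other antiviral effectors, 4 were higher in A375 and BST2 was higher in SK-MEL-28, beside 34.4% and 33.4% of all genes tested. BST2 had 2587 and 2391 counts in SK-MEL-28, against 44 and 55 in A375. Its log2 line difference of -5.77 ± 0.15 (54.5-fold, adjusted p = 2.68e-07) was the largest of the 41 genes in size. MX2, a GTPase known to restrict retroviruses, had 214 and 217 counts in SK-MEL-28 against 2556 and 3516 in A375 (log2 3.61 ± 0.12, 12.2-fold, adjusted p = 9.38e-07). MX1, its better-known relative that blocks influenza virus, was low in both lines, with 108 and 112 counts in SK-MEL-28 against 290 and 390 in A375 (1.42 ± 0.18, adjusted p = 0.00036). ISG20 was higher in A375 by 1.66 ± 0.11 (adjusted p = 2.03e-05). SAMD9 had an FPKM of 4.80 and 4.06 in SK-MEL-28 against 6.80 and 6.97 in A375 (0.47 ± 0.11, adjusted p = 0.00801). With knockdown, BST2 had log2 ratios of -0.14 (-0.23 to -0.06) and 0.11 (-0.49 to 0.72), MX2 -0.01 (-0.29 to 0.27) and 0.25 (0.18 to 0.32).

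ISG15 is a ubiquitin-like protein that is attached to other proteins, HERC5 attaches it and USP18 removes it. ISG15 had an FPKM of 10.9 and 10.4 in SK-MEL-28 and 9.0 in both A375 libraries. Its line difference of -0.41 ± 0.15 had an adjusted p of 0.0494 in edgeR, and the call was lost in 6 alternatives, with adjusted p-values between 0.0516 and 0.277 there. HERC5 had 1065 and 1010 counts in SK-MEL-28 against 170 and 174 in A375, a log2 line difference of -2.75 ± 0.12 (6.73-fold, adjusted p = 3.18e-06). USP18 was also higher in SK-MEL-28, with an FPKM of 6.29 and 5.86 against 3.68 and 3.88 (1.80-fold, adjusted p = 0.00237). HERC6, a relative of HERC5, had 0.983 and 0.861 in SK-MEL-28 against 1.54 and 2.04 in A375 (1.71-fold higher in A375, adjusted p = 0.011 in edgeR and 0.0704 in DESeq2). With knockdown, HERC6 had a log2 ratio of -0.17 (-0.48 to 0.13) in SK-MEL-28 and 0.41 (0.19 to 0.63) in A375.

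Among the other induced genes, IFI6 had 1947 and 2143 counts in SK-MEL-28 against 302 and 390 in A375, a log2 line difference of -2.74 ± 0.10 (6.68-fold, adjusted p = 1.62e-06). PARP9, a partner in antiviral ADP-ribosylation, had 2881 and 2821 counts in SK-MEL-28 against 646 and 749 in A375 (-2.21 ± 0.10, 4.61-fold, adjusted p = 3.12e-06). PARP14, an enzyme of the same family, was at an FPKM between 6.00 and 6.72 in all 4 libraries. IFI44 was higher in A375, with 175 and 209 counts in SK-MEL-28 against 682 and 881 in A375 (1.83 ± 0.13, adjusted p = 2.72e-05). IFI35 was higher in SK-MEL-28, with an FPKM of 14.9 and 15.2 against 9.15 and 12.1, and it had a knockdown ratio of 0.41 (0.26 to 0.57) in A375. IFI27 was low, between 0.656 and 0.896, and was not called between the lines (adjusted p = 0.057).

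Guanylate-binding proteins and the subunits of the immunoproteasome, which cuts peptides for antigen presentation, respond to interferon gamma in particular. GBP2 had an FPKM of 0.309 and 0.255 in SK-MEL-28 against 0.908 and 2.21 in A375, and the line difference was 2.16 ± 0.38 (4.46-fold, adjusted p = 0.00336). This difference was 1.35 between the siNC libraries and 2.92 between the siLINC00622 libraries. GBP1 was higher in SK-MEL-28, with a log2 line difference of -0.50 ± 0.16 (adjusted p = 0.0282 in edgeR), a call that was lost in 4 alternatives, with adjusted p-values between 0.103 and 0.174 there. PSMB8 had an FPKM of 7.82 and 7.34 in SK-MEL-28 against 7.65 and 8.87 in A375, and PSMB9 had 2.83 and 2.41 against 3.52 and 3.49. Neither was called between the lines, although PSMB9 passed with library totals (adjusted p = 0.0426) and in limma (0.0302). PSMB8 and PSMB9 overlap on opposite strands in GENCODE 29, and without strand their reads there cannot be told apart.

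Between the cell lines as a whole, 13 of the 41 genes (31.7%) were higher in A375 and 16 (39%) were higher in SK-MEL-28. The shares for all 16742 genes tested were 34.4% and 33.4%, so the count of differences was near that of all genes. With library totals, the counts were 14 and 12 members and 6832 and 4649 of all genes, and with limma on FPKM 14 and 12 members, so which line had more calls depended on the scaling. Past 4-fold, a limit added after the data were seen, 3 genes (IFITM2, MX2 and GBP2, 7.32%) were higher in A375 and 4 (BST2, HERC5, IFI6 and PARP9, 9.76%) in SK-MEL-28, beside 10.4% and 7.68% of all genes. Median log2 difference in size was 0.77 for the 41 genes and 0.70 for all. Neither line was higher throughout, and each role with 3 or more members, apart from the sensors and the IFITM genes, had members on both sides. The lines also differ in their pigment cell markers and in HLA-DRA, as given above, and the part of these in the line differences was not tested. Each line is a single culture per treatment, so a difference between lines cannot be told apart from one between cultures handled separately. Scaling to library totals shifted the line difference of all genes by a median of 0.17, and with it the genes past 4-fold in A375 numbered 5.

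**Figure D3:**
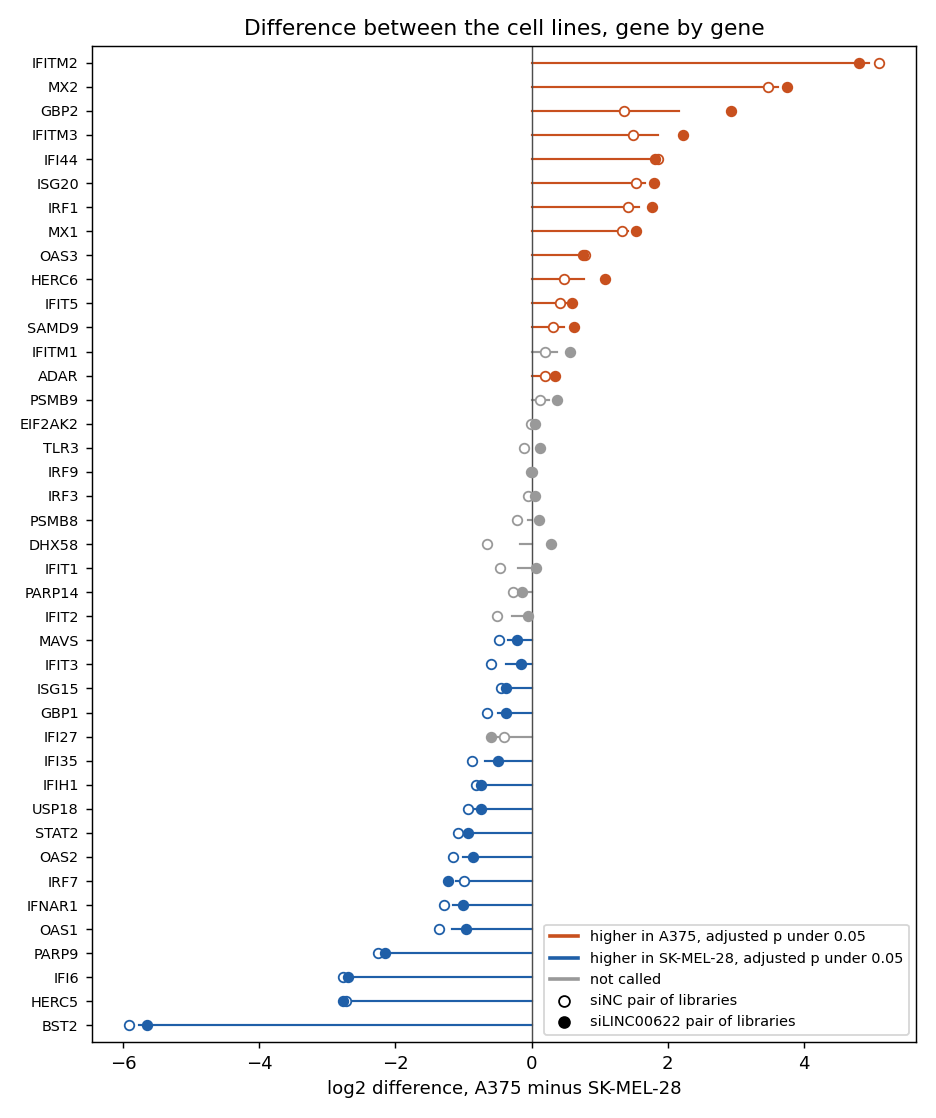
Log2 difference of A375 minus SK-MEL-28 for each of the 41 genes, as bars for the fitted value and circles for the siNC pair (open) and the siLINC00622 pair (filled). The pairs lie close together for HERC5, IFI6, IFI44 and OAS3, and GBP2 has the pairs furthest apart, at 1.35 and 2.92.

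Several members lie side by side in the genome, and 12 pairs are neighbours within 200 kb. Of these, 4 pairs were called in opposite directions, 1 pair in the same direction and 7 had a member that was not called (coordinates of GENCODE 29, GRCh38). Among all genes tested, 34.4% were called higher in A375 and 33.4% in SK-MEL-28. The share over all neighbouring pairs of genes was not computed, so these counts are not set apart from that of other neighbours. On chromosome 4, HERC6 (88378739 to 88443111) and HERC5 (88457117 to 88506163) are 14.0 kb apart. HERC6 was higher in A375 with a log2 line difference of 0.77 and HERC5 was higher in SK-MEL-28 with -2.75. On chromosome 12, OAS1 (112906777 to 112933222), OAS3 (112938352 to 112973249) and OAS2 (112978395 to 113011723) follow each other within gaps of 5.13 and 5.14 kb. OAS3, in the middle, was higher in A375 and both its neighbours were higher in SK-MEL-28. On chromosome 1, GBP1 (89052319 to 89065360) and GBP2 (89106132 to 89150456) lie 40.8 kb apart, with line differences of -0.50, a call lost in 4 alternatives, and 2.16. The MX genes on chromosome 21 were both higher in A375, with 3.61 for MX2 (41361943 to 41409390) and 1.42 for MX1 (41420304 to 41459214). On chromosome 10, the IFIT genes were between -0.38 and 0.50. PARP9 and PARP14 on chromosome 3 had -2.21 and -0.21, and PARP14 was not called. IFITM2, IFITM1 and IFITM3 on chromosome 11 had 4.95, 0.37 and 1.85, and IFITM1 was not called.

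A wider list of 108 gene names of the pathway, with ligands, receptors, signal relay, inhibitors and further induced genes, had 79 names in the table. SHFL and C19orf66 are names of the same gene, so the fit holds 78 genes. In SK-MEL-28, 8 of 76 tested genes (10.5%) were over 1.5-fold higher with siLINC00622 and 3 (3.95%) were lower, beside 4.56% and 6.49% of all genes. Those higher include APOL2, CIITA, NLRX1, SOCS1, SOCS3, TNFAIP3 and ZCCHC3, and the 3 lower were APOL6, CGAS and STING1. SOCS1, SOCS3 and TNFAIP3 encode inhibitors of cytokine and inflammatory signalling, and SOCS1 rests on 32 (siNC) and 77 (siLINC00622) counts there. The inhibitors did not move together in this line. NLRX1 was also higher (log2 0.62), whereas TRIM21 (-0.23), CYLD (-0.29), RNF125 (-0.21) and PIAS1 (-0.06) were lower. For SOCS1, SOCS3 and TNFAIP3, the A375 values on this scale were 0.1, -0.02 and -0.23. In A375, 0 of 77 were past the 1.5-fold limit in either direction, beside 4.52% and 4.34%. Across both lines the edgeR fit called 0 of 78 (0.448% of all genes), with 15 at an unadjusted p under 0.05 (14.5% of all genes). In limma 0 of 78 were called, and in DESeq2 1 of 57 (APOL2). Between the lines, 25 of 78 (32.1%) were higher in A375 and 33 (42.3%) in SK-MEL-28, beside 34.4% and 33.4% of all genes. CGAS, the sensor of cytosolic DNA, had 710 and 481 counts in SK-MEL-28 against 4 and 5 in A375 (log2 -6.65 ± 0.42, adjusted p = 1.39e-06, edgeR). CIITA, the master factor of HLA class II genes, had 82 and 139 counts in SK-MEL-28 against 3936 and 5363 in A375 (5.21 ± 0.14, adjusted p = 4.85e-07). RTP4 had 285 and 324 counts against 16 and 18 (-4.18 ± 0.26, adjusted p = 7.72e-06). IFNLR1, a chain of the interferon lambda receptor, had 3 and 4 counts in SK-MEL-28 against 169 and 213 in A375. Of the interferon ligands in the wider list, IFNE alone was in the deposited table, and other ligands were not looked up. IFNE had 0 counts in both SK-MEL-28 libraries and 21 and 36 in A375.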

How the data were processed

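RNA-seq of 4 libraries was used, grouped by the cell line and treatment of their labels. The authors deposited raw read counts per gene, as whole numbers. They also deposited FPKM, adjusted by the authors for length and depth, and CPM; the ratio of count to deposited CPM gave each library's total. TPM values deposited by the authors were not used. The submitters' processing notes name hg19, HISAT2, HISAT, TopHat2 and Bowtie2. The counter and annotation are not given in the sources used here. The table has no coordinates, so those of GENCODE 29 and RefSeq on GRCh38 are given and none of hg19.

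Members and lists were chosen with earlier results of these data known. Within a line, counts were scaled by TMM (edgeR 4.0.16, R 4.3.3) and log2 ratios used a prior count of 2. Genes that reached 10 counts in either library of a line entered the shares over 1.5-fold. Intervals are 95% Clopper-Pearson intervals and cover counting error only, since 1 library per condition gives no spread between cultures. The reads also carry no molecular identifiers. Across the 4 libraries, edgeR's quasi-likelihood test used cell line and siRNA as terms. This leaves 1 residual degree of freedom, supported by a median of 5.78 prior degrees of freedom, and p-values were adjusted by Benjamini-Hochberg over 16742 genes. The treatment term is thereby paired by line. The residual degree of freedom holds any difference between the lines in their response to knockdown. Alternatives were library totals, DESeq2 1.42.0 size factors and Wald test, limma 3.58.1 on log2(FPKM + 1), other filters, single-term fits and summed families. Scripts were tested on simulated data.

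Named were the sensors, MAVS, EIF2AK2 and ADAR in any case, then members past a threshold, the 5 largest ratios per line, the 10 largest line differences and the 5 highest levels. Values of the remaining members complete each role. Some genes of the wider list are not reported here by name.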

Additional observations from a re-analysis of the deposited data

Results flagged for a closer look

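ADAR and IFITM3 had knockdown ratios on opposite sides of 0 in the lines, with counting intervals that exclude 0 in each. The log2 ratio of siLINC00622 over siNC of ADAR was -0.08 in SK-MEL-28 but 0.04 in A375. Its interval in A375 was 0.01 to 0.08, for counting error only, and library totals shifted the ratios of that line by a median of -0.01. The share of all genes with such opposite intervals was not computed. The log2 ratio of IFITM3 was -0.54 in SK-MEL-28 but 0.16 in A375. With 1 library pair per line the difference between the lines was not tested.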

How the results depend on the processing

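With 1 library per condition, leaving out a replicate was not possible. The treatment term is paired by cell line, and the labels give no replicate numbers for another block. No member was called between siLINC00622 and siNC under any alternative. For all genes, this term called 38 higher and 37 lower, against 1 and 0 with library totals, 22 higher with DESeq2 size factors, 143 and 162 in DESeq2's Wald test, 1 and 0 in limma on FPKM, 59 lower without a filter, and 0 and 0 with at least 50 counts or with treatment as the single term. The cause was not tested. Between the lines, 260 comparisons of members under an alternative stayed called or stayed not called, with no change of sign at 2 decimals. These include members that were not called in the main fit. Another 18 lost the call and 2 gained it. Sign changed in 8 comparisons. Of these, 1 set the summed IFIT counts (0.10) against IFIT3, and IFIT3 by itself stayed negative in each alternative. The other changes were in genes called in neither fit. TLR3 was -0.01 with DESeq2 size factors and in its Wald test. IRF3 was 0.16 with library totals, 0.15 in limma and 0.01 with at least 50 counts. PSMB8 was 0.12 and 0.11 with library totals and limma. For treatment, IFITM3 turned to 0.02 with treatment as the single term. Members past 4-fold numbered 5 in A375 with library totals and 2 in SK-MEL-28 with limma.

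On FPKM with a pseudocount of 1, which shrinks low genes, 0 members were lower in SK-MEL-28 and 1 was higher in A375, and over all genes SK-MEL-28 had 200 higher and 294 lower, A375 131 and 171. With at least 50 counts these were 356 and 638, and 405 and 312. Without a filter, 1081 genes were higher in SK-MEL-28 and 1064 lower in A375.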
